A study of Saccharomyces cerevisiae with 6 samples.

Results

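The 5' domain of 18S rRNA was followed here in particles that still carried the 35S pre-rRNA, from which Saccharomyces cerevisiae cuts its 18S, 5.8S and 25S rRNA. Its members were chosen by position alone, as nucleotides 1 to 620 of 18S (35S nucleotides 701 to 1320), which are 620 of the 6858 nucleotides of the transcript. All 620 had a reactivity value and a posterior in both strains. As in other SHAPE experiments, flexible nucleotides had been marked with 1M7, a reagent that acylates the 2'-hydroxyl group of the ribose and stops reverse transcriptase next to the adduct. The particles were purified through TAP-tagged Mrd1 in both strains, which share the BY4741 background. The first strain, whose particles are called deltaRDB5 here, carries mrd1-deltaRDB5-TAP::K.I.TRP1, read as Mrd1 without its RNA-binding domain RBD5, together with pGAL-HA-MRD1::URA3, a tagged MRD1 gene behind a galactose-driven promoter. It was represented by 2 libraries after 1M7 and 2 after the solvent DMSO. The second strain carries GAL::3HA-ERB1::KAN and an intact MRD1-TAP::URA3, gives the particles called Erb1-depleted here, and was represented by 2 libraries after 1M7, with no DMSO library labelled for it. Per the series title, the study asked about a role of Mrd1 in how the U3 snoRNA rearranges on its pre-rRNA substrate. Since no unaltered strain was among the samples, loss of RBD5 and depletion of Erb1 cannot be told apart, and the labels name YPD and YPG/R as growth media without saying which strain had which.

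The 5' domain is the first part of the small subunit RNA to be transcribed, and in the mature subunit it forms much of the body. Before it folds into that form, the U3 snoRNA pairs with its first nucleotides through box A, and the U14 snoRNA pairs with a site further in through its domain A. Both pairings are needed to make 18S rRNA, and both have to be undone before the mature helices can close. Other box C/D snoRNAs guide methylation of 2'-hydroxyl groups in the domain, and box H/ACA snoRNAs guide the change of uridine to pseudouridine. The domain ends near the 530 loop of helix 18, a conserved part of the decoding region.

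The stretches on which the comparison turns are printed below in both strains, 5' to 3', as read from the deposited sheet with U for T. Capitals mark nucleotides modified at a posterior of at least 0.95, so that a capital in only 1 of the 2 lines of a stretch is a nucleotide marked in that strain alone. Such a nucleotide need not have a higher reactivity in that strain. The 5' end (RDN37-1:701-730, plus strand) is shown because U3 box A pairs within it, and RDN37-1:773-805 for the U14 site with 10 nt on either side. RDN37-1:839-853, RDN37-1:948-960, RDN37-1:1054-1072 and RDN37-1:1290-1320 hold most of the differences toward Erb1-depleted particles.
18S U1 to G30, deltaRDB5: uaUCUGgUugauccUGCcagUAgucAuaUg
18S U1 to G30, Erb1-depleted: uaucugguugauccugccAgUAgucAuaUg
18S U73 to A105, deltaRDB5: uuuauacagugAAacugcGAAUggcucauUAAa
18S U73 to A105, Erb1-depleted: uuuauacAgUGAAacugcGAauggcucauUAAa
18S C139 to G153, deltaRDB5: caugguauAAcugug
18S C139 to G153, Erb1-depleted: caUGgUAUAAcugug
18S U248 to U260, deltaRDB5: uucAuaauAAcuu
18S U248 to U260, Erb1-depleted: uUcAUAAUAAcuu
18S C354 to G372, deltaRDB5: cggguaacGGggaauAAgg
18S C354 to G372, Erb1-depleted: cgggUAACGGGGAAuAAGG
18S C590 to A620, deltaRDB5: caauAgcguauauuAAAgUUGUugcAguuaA
18S C590 to A620, Erb1-depleted: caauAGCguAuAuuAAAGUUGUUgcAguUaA

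The label was checked against the sequence and the annotation. All 620 bases of the sheet matched the deposited reference sequence, and the region began at the first nucleotide of 18S in the deposited annotation. Of 14 nucleotides known to be 2'-O-methylated or pseudouridylated in this part of mature yeast 18S, 14 fell on the base they should have. The sheet gives 1 value per nucleotide and strain, with the libraries of a strain combined, and no read numbers. The depth behind a value is therefore unknown, no difference could be set against the spread between libraries, and every comparison of strains or regions that follows is a description without a test.

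The domain was marked more densely than the remainder of the transcript in both strains. In deltaRDB5 particles 165 of its 620 nucleotides were modified (26.6%, Wilson 95% interval 23.3 to 30.2), where 18.5% of all measured nucleotides of the transcript were. In Erb1-depleted particles 190 were modified (30.6%, interval 27.1 to 34.4), where 21.1% of all were. In the remainder of 18S the shares were 19.7% in deltaRDB5 particles and 23.0% in Erb1-depleted particles. These intervals treat nucleotides as independent, which neighbours in a strand are not, and cover no spread between libraries. Mean normalized reactivity was 0.342 in deltaRDB5 particles and 0.330 in Erb1-depleted particles, while the remainder of 18S had 0.264 in deltaRDB5 and 0.253 in Erb1-depleted particles. The normalized reactivity is the raw score times 1 factor for each strain, with negative scores set to 0, so it has no unit. On raw scores the order of the strains in the domain turned, with means of 0.0242 in deltaRDB5 particles and 0.0339 in Erb1-depleted particles. In the remainder of 18S it did not, with 0.00423 in deltaRDB5 and 0.00254 in Erb1-depleted particles.

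The strains marked largely the same nucleotides of the domain. Both strains modified 133, deltaRDB5 particles alone 32, Erb1-depleted particles alone 57, and 398 were modified in neither. Across the 620 nucleotides, which share a transcript and possibly control libraries and are not replicates, the Pearson r between the raw scores was 0.907, and it was 0.864 over the remainder of the transcript. Reactivity and posterior ranked high values alike. All 81 nucleotides of deltaRDB5 particles and all 68 of Erb1-depleted particles with a normalized reactivity of at least 0.85, a customary bound for highly reactive nucleotides, were also modified by the posterior. Between 0.4 and 0.85 the posterior passed 77 of 144 nucleotides in deltaRDB5 particles and 99 of 141 in Erb1-depleted particles.

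**Figure D1:**
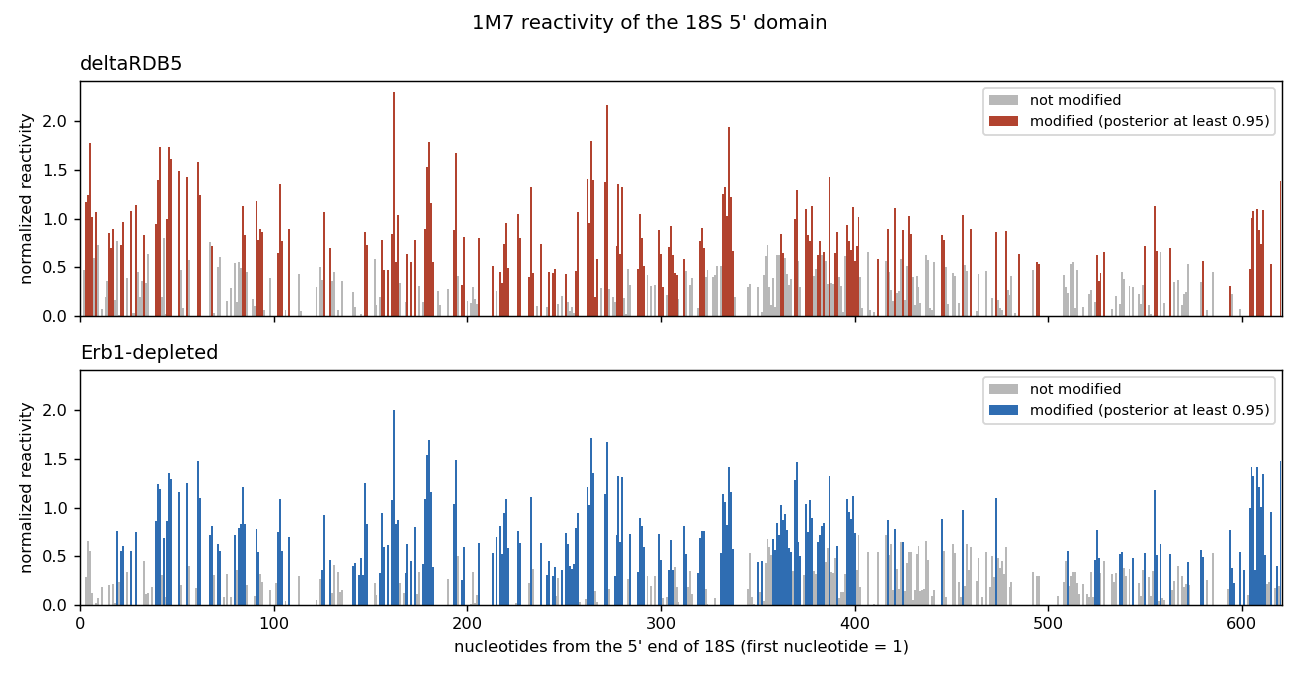
Normalized 1M7 reactivity (no unit) of each nucleotide of 18S 1 to 620 by its distance from the 5' end, with deltaRDB5 particles above and Erb1-depleted particles below, and coloured bars for nucleotides modified at a posterior of at least 0.95. The highest bar of both strains is A162 (2.30 in deltaRDB5 particles and 2.00 in Erb1-depleted particles), and the first 20 nucleotides hold 8 coloured bars in deltaRDB5 particles and 1 in Erb1-depleted particles.

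The most reactive nucleotides were mostly shared. A162 led in both strains, with normalized reactivities of 2.30 in deltaRDB5 particles and 2.00 in Erb1-depleted particles. U272 had 2.17 in deltaRDB5 particles and 1.67 in Erb1-depleted particles. U335 had 1.94 in deltaRDB5 and 1.42 in Erb1-depleted particles. All of these were higher on this scale in deltaRDB5 particles, whose factor is the larger. The raw scores of A162 ran the other way, with 0.441 in deltaRDB5 particles and 0.460 in Erb1-depleted particles. Those of U272 and U335 kept the order. G264 had 1.79 in deltaRDB5 and 1.72 in Erb1-depleted particles. A180 had 1.79 in deltaRDB5 particles and 1.70 in Erb1-depleted particles. U194 had 1.68 in deltaRDB5 and 1.49 in Erb1-depleted particles. A61 had 1.58 in deltaRDB5 and 1.48 in Erb1-depleted particles. The raw scores of G264, A180, U194 and A61 ran the other way too. They were 0.344 in deltaRDB5 and 0.394 in Erb1-depleted particles at G264, and 0.322 in deltaRDB5 and 0.342 in Erb1-depleted particles at U194. All 7 nucleotides named so far stood among the 10 highest of both strains, counted at most once per 5 nt, and lie outside the snoRNA sites listed here. The other places were filled by U5 (1.78 in deltaRDB5 particles and 0.550 in Erb1-depleted particles), A46 (1.74 in deltaRDB5 and 1.36 in Erb1-depleted particles) and A41 (1.74 in deltaRDB5 and 1.19 in Erb1-depleted particles) in the list of deltaRDB5 particles. In the list of Erb1-depleted particles they were filled by A620 (1.38 in deltaRDB5 particles and 1.48 in Erb1-depleted particles), A370 (1.30 in deltaRDB5 and 1.47 in Erb1-depleted particles) and A605 (1.00 in deltaRDB5 and 1.42 in Erb1-depleted particles). U5 lies in the first 30 nucleotides, the 5' end that is listed here for its pairing with U3, and A605 and A620 lie at the far end of the domain.

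Adenosines made up most of the modified nucleotides, with 55.2% of them in deltaRDB5 particles and 53.2% in Erb1-depleted particles. In deltaRDB5 particles 49.5% of the 184 adenosines were modified, while U followed with 21.8%, G with 16.3% and C with 10.3%. In Erb1-depleted particles A again led with 54.9%, before U with 27.4%, G with 20.6% and C with 9.48%. Outside the domain 33.0% of A were modified in deltaRDB5 particles and 36.3% in Erb1-depleted particles. Adenosines also made up 29.7% of the domain, against 26.7% of the remainder of the transcript. C, G and U too had higher modified shares inside the domain than outside it in both strains. Against the remainder of 18S this did not hold for U in deltaRDB5 particles, with 21.8% in the domain and 22.4% in that remainder, or for G in Erb1-depleted particles, with 20.6% in the domain and 20.8% in that remainder. Runs of at least 3 adenosines stood out further. There were 11 such runs with 37 nucleotides, of which 29 were modified in deltaRDB5 particles (78.4%) and 26 in Erb1-depleted particles (70.3%), while 42.2% of the 147 other adenosines were modified in deltaRDB5 and 51.0% in Erb1-depleted particles. The run at A179 to A182 was modified throughout in both strains, with mean normalized reactivities of 1.26 in deltaRDB5 particles and 1.20 in Erb1-depleted particles. The run at A436 to A438, whose first nucleotide is 2'-O-methylated in mature 18S, held no modified nucleotide in either strain.

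In 31 windows of 20 nt the strains shared 3 of their 5 highest and 3 of their 5 lowest means. U261 to U280 had the highest mean in deltaRDB5 particles (0.740, with 0.641 in Erb1-depleted particles), followed by C381 to A400 (0.629 in deltaRDB5 and 0.627 in Erb1-depleted particles), U1 to G20 (0.603 in deltaRDB5 and 0.166 in Erb1-depleted particles), C321 to U340 (0.597 in deltaRDB5 and 0.423 in Erb1-depleted particles) and U161 to A180 (0.592 in deltaRDB5 and 0.627 in Erb1-depleted particles). In Erb1-depleted particles the highest were C361 to U380 (0.584 in deltaRDB5 particles and 0.722 in Erb1-depleted particles) and A601 to A620 (0.414 in deltaRDB5 and 0.685 in Erb1-depleted particles), before U261 to U280, C381 to A400 and U161 to A180. The first window thus had rank 3 of 31 in deltaRDB5 particles and rank 27 in Erb1-depleted particles. The lowest means in deltaRDB5 particles were those of U581 to U600 (0.0549 in deltaRDB5 particles and 0.143 in Erb1-depleted particles), A481 to C500 (0.131 in deltaRDB5 and 0.0583 in Erb1-depleted particles), U501 to A520 (0.133 in deltaRDB5 and 0.158 in Erb1-depleted particles), G561 to A580 (0.172 in deltaRDB5 and 0.185 in Erb1-depleted particles) and G461 to G480 (0.182 in deltaRDB5 and 0.292 in Erb1-depleted particles). In Erb1-depleted particles A481 to C500, U581 to U600 and U501 to A520 were again lowest, followed by U121 to A140 (0.208 in deltaRDB5 particles and 0.161 in Erb1-depleted particles) and U1 to G20.

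**Figure D2:**
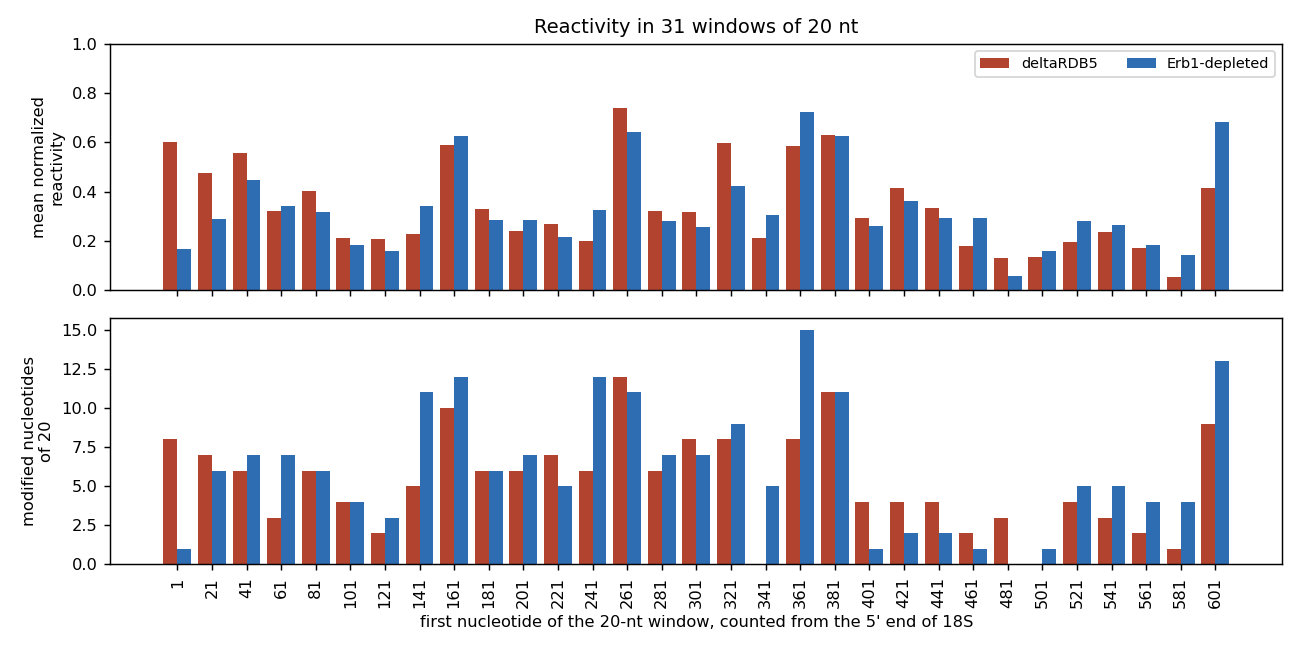
Mean normalized reactivity (top, no unit) and number of modified nucleotides (bottom) in each of 31 windows of 20 nt, with deltaRDB5 particles left of Erb1-depleted particles in each pair of bars. The window from U1 has 8 modified nucleotides in deltaRDB5 particles and 1 in Erb1-depleted particles, and the window from A601 has 9 in deltaRDB5 particles and 13 in Erb1-depleted particles.

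The longest stretches without a modified nucleotide in either strain were G109 to A124 (16 nt), G430 to C444 (15 nt), G496 to G509 (14 nt), A511 to G523 (13 nt) and U581 to U593 (13 nt). U581 to U593 averaged 0.0387 in deltaRDB5 particles and 0.0730 in Erb1-depleted particles, and G109 to A124 averaged 0.0799 in deltaRDB5 particles and 0.0387 in Erb1-depleted particles. G430 to C444 were not silent on this scale, with means of 0.215 in deltaRDB5 particles and 0.210 in Erb1-depleted particles, but none passed the posterior.

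Reactivity was also set against a fold predicted from the sequence of the domain alone with RNAfold, which knows nothing of proteins, snoRNAs or the reactivities. Of the 258 nucleotides predicted to be unpaired, 36.4% were modified in deltaRDB5 particles and 39.5% in Erb1-depleted particles, against 19.6% in deltaRDB5 and 24.3% in Erb1-depleted particles of the 362 predicted to be paired. Mean normalized reactivity was 0.416 in deltaRDB5 particles and 0.417 in Erb1-depleted particles at unpaired nucleotides, and 0.289 in deltaRDB5 and 0.268 in Erb1-depleted particles at paired ones. A predicted hairpin with a high loop and a low stem was A323 to U345 (RDN37-1:1023-1045, plus strand), shown with modified nucleotides in capitals.
18S A323 to U345, deltaRDB5: augguaggaUAGUGGccuaccau
18S A323 to U345, Erb1-depleted: augguaggAUAGUGGccuaccau
Its loop of 7 nt, from A331 to G337, had 6 modified nucleotides in deltaRDB5 particles and 7 in Erb1-depleted particles and a mean normalized reactivity of 1.14 in deltaRDB5 and 0.959 in Erb1-depleted particles. The stem of 8 pairs had 0.168 in deltaRDB5 particles and 0.0254 in Erb1-depleted particles, and none of its nucleotides was modified. The hairpin G228 to C237 (RDN37-1:928-937) closes a uucg loop.
18S G228 to C237, deltaRDB5: gucuUCGgac
18S G228 to C237, Erb1-depleted: gucuuCggac
There C233 was the most reactive, with 1.32 in deltaRDB5 particles and 1.11 in Erb1-depleted particles. Of the 13 hairpins also predicted when all 1800 nt of 18S were folded, 9 had a higher mean in the loop than in the stem in deltaRDB5 particles, and 9 did in Erb1-depleted particles. Some of these stems were short, down to 1 pair at the loops U88 to U94 and G143 to A148, so their means rest on few nucleotides.

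The strains were then compared nucleotide by nucleotide. A difference was called where the raw scores, smoothed over 3 nt, differed by at least 1 SD of all smoothed differences of the transcript in at least 3 of 5 adjacent nucleotides, with a Z-factor above 0. Calls were counted only at nucleotides modified in at least 1 strain. Numbers of modified nucleotides given below for calls and their groups follow in part from this filter and are no separate support for the calls. The standardized difference is the smoothed score of deltaRDB5 particles minus that of Erb1-depleted particles in units of that SD, centred on the transcript. In the domain 56 nucleotides were called (9.03%), where 5.96% of all measured nucleotides were. Of these, 12 were higher in deltaRDB5 particles (0.81% of all nucleotides of the transcript were called in this direction) and 44 in Erb1-depleted particles (5.15% of all). In the remainder of 18S 10 of 1180 nucleotides were called higher in deltaRDB5 particles and 60 in Erb1-depleted particles. On normalized scores with negatives at 0 the split was 34 higher in deltaRDB5 particles and 35 in Erb1-depleted particles, and without U1 to G30 of the domain 3 of the 12 were left. Shares over the transcript are given for the main rule only. Counts under other settings, here and below, can therefore not be set against the transcript. All 56 differed in the called direction in the unsmoothed raw score and in the normalized reactivity. Since they were chosen on the smoothed raw scores, this is no separate support for the calls.

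The directions were unevenly spread along the domain. The first 100 nucleotides held 11 of the 12 calls higher in deltaRDB5 particles and 0 higher in Erb1-depleted particles. U101 to A620 held 1 call higher in deltaRDB5 particles and 44 in Erb1-depleted particles. On normalized scores with negatives at 0 the first 100 nucleotides held 18 higher in deltaRDB5 particles and 2 in Erb1-depleted particles, and the others held 16 in deltaRDB5 and 33 in Erb1-depleted particles. With a running median taken out, the first 100 held 12 higher in deltaRDB5 particles and 4 in Erb1-depleted particles, and the others held 3 in deltaRDB5 and 35 in Erb1-depleted particles. The mean standardized difference was 0.37 over the first 100 nucleotides and -0.25 over the others. Calls of 1 direction at most 5 nt apart fell into 11 groups, 5 higher in deltaRDB5 particles and 6 higher in Erb1-depleted particles. Of the 12 calls higher in deltaRDB5 particles, 11 were at nucleotides modified in deltaRDB5 particles alone. Of the 44 higher in Erb1-depleted particles, 23 were modified in that strain alone and 21 in both. Over the whole transcript, the corresponding counts were 41 of 53 calls higher in deltaRDB5 particles and 166 of 337 higher in Erb1-depleted particles.

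**Figure D3:**
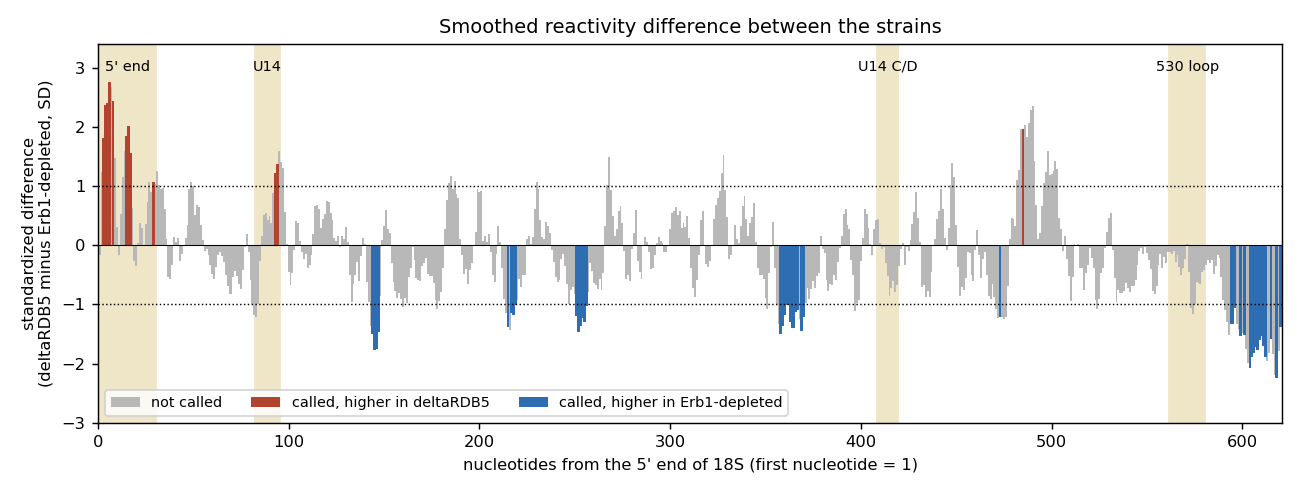
Standardized difference between the strains (deltaRDB5 minus Erb1-depleted, in SD of all smoothed differences of the transcript) by distance from the 5' end of 18S, with the 5' end, the U14 sites and the 530 loop shaded and dotted lines at 1 and -1. Calls higher in deltaRDB5 particles lie at the left edge, at the U14 site and at A485, and the longest group of calls higher in Erb1-depleted particles lies at the right edge.

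In the 5' end, U1 to G30, the calls higher in deltaRDB5 particles formed separate groups at U3 to U8, at U15 to C17 and at U29. U3 to U8 averaged 1.14 in deltaRDB5 particles and 0.274 in Erb1-depleted particles. G6 had the highest standardized difference of the domain, 2.75. U15 to C17 averaged 0.816 in deltaRDB5 particles and 0.137 in Erb1-depleted particles. Nucleotides beside them differed in the same direction but were modified in neither strain, and so were not counted. A2 had normalized reactivities of 0.470 in deltaRDB5 particles and 0 in Erb1-depleted particles. G7 had 0.593 in deltaRDB5 and 0 in Erb1-depleted particles. U9 had 0.723 in deltaRDB5 and 0.0750 in Erb1-depleted particles, with posteriors in deltaRDB5 particles of 0.623 at A2, 0.368 at G7 and 0.915 at U9. Just before U15 the values of deltaRDB5 particles were low but above 0. C13 had 0.192 in deltaRDB5 and 0 in Erb1-depleted particles. C14 had 0.360 in deltaRDB5 and 0 in Erb1-depleted particles. U1 was 0 in both strains. From G10 to U12 the standardized differences lay between -0.17 and 0.53, where A11 had 0.0682 in deltaRDB5 particles and 0.186 in Erb1-depleted particles and the others were 0 in both. The strains were also close at A19, with 0.766 in deltaRDB5 particles and 0.760 in Erb1-depleted particles, though A19 was modified in Erb1-depleted particles alone. Of the nucleotides from A19 to A22 none had a standardized difference above 0.37. The mean normalized reactivity of U1 to G20 was 0.603 in deltaRDB5 particles and 0.166 in Erb1-depleted particles. With a threshold of 2 SD in place of 1 SD, C4, U5, G6 and U8 were the 4 nucleotides of the whole domain that were still called.

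The U14 site, G83 to G95, had a mean normalized reactivity of 0.535 in deltaRDB5 particles and 0.388 in Erb1-depleted particles, with 6 modified nucleotides in deltaRDB5 particles and 5 in Erb1-depleted particles. Along the site the sign of the difference turned. G83 had 0.487 in deltaRDB5 particles and 0.837 in Erb1-depleted particles and was modified in Erb1-depleted particles alone. A84 had 1.12 in deltaRDB5 and 1.21 in Erb1-depleted particles. A85 had 0.834 in deltaRDB5 and 0.836 in Erb1-depleted particles. These nucleotides had standardized differences of -1.21, -0.99 and -0.27, and the U82 before them had -1.19, and too few of them in a row passed 1 SD for a call. Within the site 2 nucleotides were called higher in Erb1-depleted particles with a running median taken out, and 1 on normalized scores with negatives at 0. From A86 onward all 10 nucleotides of the site had positive standardized differences. A86 had 0.455 in deltaRDB5 particles and 0.202 in Erb1-depleted particles, and C87 and U88 were 0 in both. G89 had 0.172 in deltaRDB5 and 0 in Erb1-depleted particles. C90 had 0.104 in deltaRDB5 and 0.0917 in Erb1-depleted particles.

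The calls of the U14 site lay in its last nucleotides. G91 had 1.18 in deltaRDB5 particles and 0.775 in Erb1-depleted particles. A92 had 0.779 in deltaRDB5 and 0.541 in Erb1-depleted particles, and both were modified in both strains. A93 had 0.895 in deltaRDB5 particles and 0.316 in Erb1-depleted particles. U94 had 0.864 in deltaRDB5 and 0.233 in Erb1-depleted particles. A93 and U94 were modified in deltaRDB5 particles alone and were the 2 nucleotides called, with standardized differences of 1.22 and 1.38. G95 had 0.0585 in deltaRDB5 particles and 0 in Erb1-depleted particles. In the printed sequence of the site the capitals therefore run from G91 to U94 in deltaRDB5 particles and stop at A92 in Erb1-depleted particles. A93 and U94 stayed called on all scales tried and without smoothing, but not at a threshold of 2 SD. The mean standardized difference of the site was 0.39. It was 0.23 with 5 nt added on either side, 0.67 with each strain scaled by its factor, 0.69 at equal SD, 0.71 after quantile normalization and 0.86 on normalized scores with negatives at 0.

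**Figure D4:**
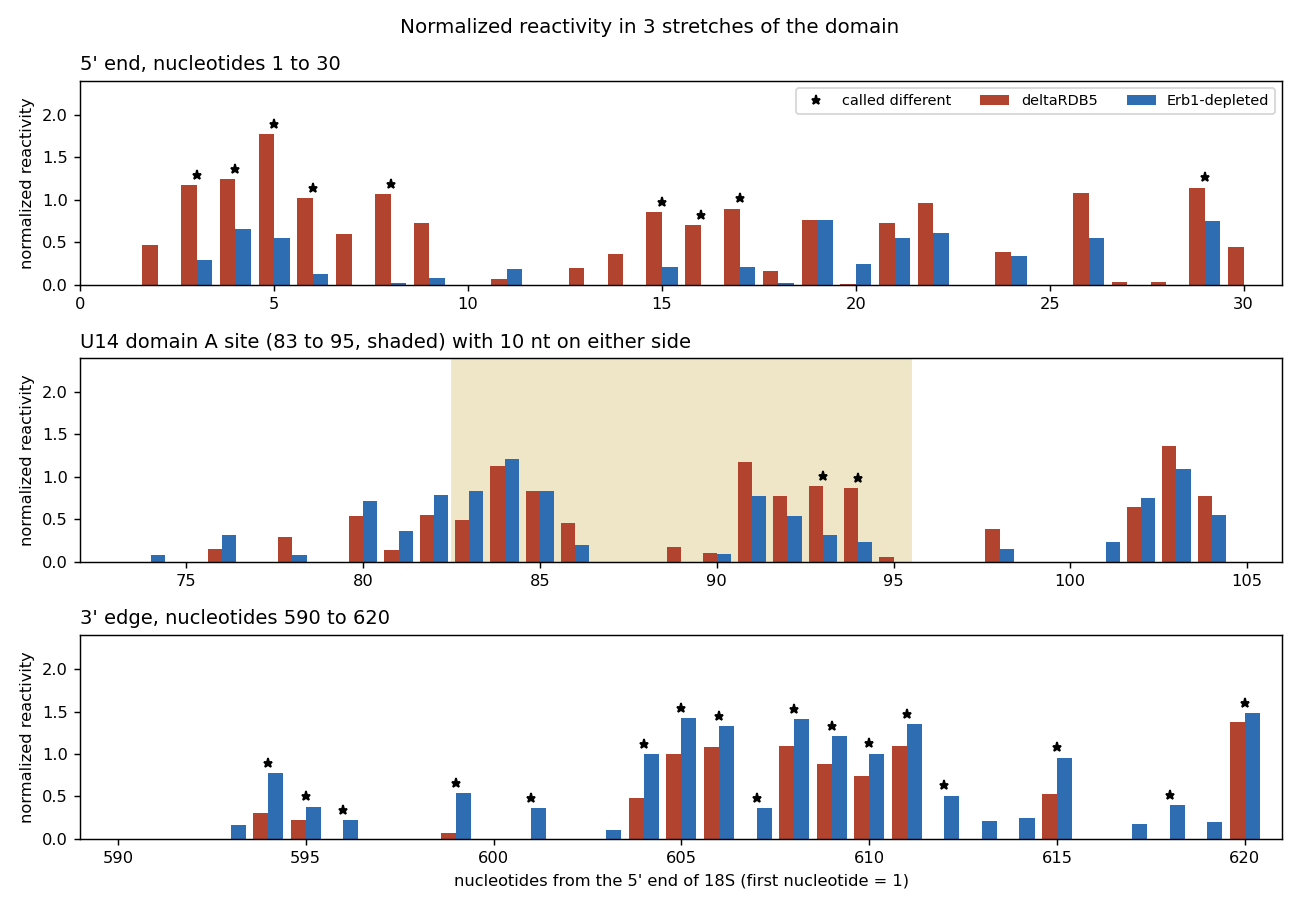
Normalized reactivity (no unit) of single nucleotides at the 5' end of 18S (top), around the U14 domain A site (middle, site shaded) and at the 3' edge of the domain (bottom), with deltaRDB5 particles left of Erb1-depleted particles and stars over called nucleotides. The starred bars are higher in deltaRDB5 particles in the upper panels (U94 has 0.864 in deltaRDB5 and 0.233 in Erb1-depleted) and higher in Erb1-depleted particles in the lower one (A604 has 0.483 in deltaRDB5 and 0.996 in Erb1-depleted).

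U14 also guides methylation of C414 through its C/D guide, and C409 to G419 around that site held 0 calls in 11 nt, near what a share of 5.96% over the transcript gives. Their mean normalized reactivity was 0.254 in deltaRDB5 particles and 0.298 in Erb1-depleted particles, with 2 modified nucleotides in deltaRDB5 particles and 1 in Erb1-depleted particles. A417 was modified in both, with 0.889 in deltaRDB5 particles and 0.876 in Erb1-depleted particles, and A412 in deltaRDB5 particles alone, with 0.588 in deltaRDB5 and 0.544 in Erb1-depleted particles. The mean standardized difference was -0.37. It was -0.13 on normalized scores with negatives at 0, -0.14 with a running median taken out and -0.19 with 5 nt added on either side.

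Beyond the first 100 nucleotides the calls higher in Erb1-depleted particles lay in 5 short groups before the last stretch. At U144 to A147, 1 nucleotide was modified in deltaRDB5 particles and all 4 in Erb1-depleted particles. Here and in the groups that follow, such counts depend in part on the filter on modified nucleotides. A145 had 0.0220 in deltaRDB5 particles and 0.484 in Erb1-depleted particles. U144 had 0 in deltaRDB5 and 0.307 in Erb1-depleted particles. U146 had 0 in deltaRDB5 and 0.311 in Erb1-depleted particles. The last nucleotide of the group was reactive in both strains. A147 had 0.859 in deltaRDB5 and 1.25 in Erb1-depleted particles. These 4 calls were kept on all scales tried. At A251 to A256, 2 nucleotides were modified in deltaRDB5 particles and all 6 in Erb1-depleted particles, with mean normalized reactivities of 0.198 in deltaRDB5 particles and 0.556 in Erb1-depleted particles. U252 had 0.145 in deltaRDB5 particles and 0.627 in Erb1-depleted particles. A253 had 0.0451 in deltaRDB5 and 0.397 in Erb1-depleted particles. On each scale tried at least 5 of these 6 calls were kept.

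The groups at A215 to A219 and at U358 to A370 depended on the scale. The 4 calls of the first were all at adenosines. A215 had 0.256 in deltaRDB5 and 0.697 in Erb1-depleted particles. A217 had 0.452 in deltaRDB5 and 0.810 in Erb1-depleted particles. A217 is the first of a run of 6 adenosines. A218 had 0.342 in deltaRDB5 and 0.524 in Erb1-depleted particles. A219 had 0.739 in deltaRDB5 and 0.940 in Erb1-depleted particles. None of them was called on normalized scores with negatives at 0 or with a running median of the difference taken out. The second group held 12 calls over 13 nt, with 4 nucleotides modified in deltaRDB5 particles and 12 in Erb1-depleted particles, and a mean normalized reactivity of 0.555 in deltaRDB5 particles and 0.819 in Erb1-depleted particles. U358, with 0.386 in deltaRDB5 particles and 0.680 in Erb1-depleted particles, and A359, with 0.0946 in deltaRDB5 particles and 0.562 in Erb1-depleted particles, were the 2 still called when each strain was scaled by its factor and after quantile normalization. At equal SD 2 of the 12 were kept.

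The posterior and the reactivity parted in this group, as they did elsewhere in the domain. There the posterior passed 77 of the 144 nucleotides of deltaRDB5 particles with a reactivity between 0.4 and 0.85. G364 had a normalized reactivity of 0.590 in deltaRDB5 particles and 0.939 in Erb1-depleted particles. G365 had 0.427 in deltaRDB5 and 0.773 in Erb1-depleted particles. A360 had 0.624 in deltaRDB5 and 0.845 in Erb1-depleted particles. All were modified in Erb1-depleted particles alone, so that the reactivities of deltaRDB5 particles at these nucleotides were moderate while their posteriors were low. A473, the fifth group, was a lone counted call, with 0.863 in deltaRDB5 particles and 1.10 in Erb1-depleted particles, and it was not called after quantile normalization.

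The only call higher in deltaRDB5 particles beyond nucleotide 100 was A485, with 0.640 in deltaRDB5 particles and 0 in Erb1-depleted particles, and a posterior of 0.963 in deltaRDB5 particles. It lay in A481 to C500, where all 20 standardized differences were positive, with a mean of 1.33 on raw scores and of 0.43 on normalized scores with negatives at 0. There, 15 nucleotides met the rule before the filter on modified nucleotides, in which 13.7% of the transcript was called higher in deltaRDB5 particles and 11.4% in Erb1-depleted particles. Most of these had negative raw scores in both strains and a normalized reactivity of 0, as at C489, with raw scores of -0.0579 in deltaRDB5 particles and -0.250 in Erb1-depleted particles. The stretch overlaps a predicted hairpin of 9 pairs, A483 to U504 (RDN37-1:1182-1200 is shown), with a loop from A492 to C495.
18S U482 to C500, deltaRDB5: uacAgggcccauUCggguc
18S U482 to C500, Erb1-depleted: uacagggcccauucggguc
In the loop U494 had 0.551 in deltaRDB5 particles and 0.298 in Erb1-depleted particles. C495 had 0.529 in deltaRDB5 and 0.300 in Erb1-depleted particles, and both were modified in deltaRDB5 particles alone without being called.

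The last group, A594 to A620, held 17 of the 44 calls higher in Erb1-depleted particles and reached the edge of the domain, beyond which the calls went on. Its 27 nucleotides had a mean normalized reactivity of 0.329 in deltaRDB5 particles and 0.578 in Erb1-depleted particles, with 10 modified in deltaRDB5 particles and 17 in Erb1-depleted particles. A604 had 0.483 in deltaRDB5 particles and 0.996 in Erb1-depleted particles. A605 had 1.00 in deltaRDB5 and 1.42 in Erb1-depleted particles. A606 had 1.08 in deltaRDB5 and 1.33 in Erb1-depleted particles. These adenosines were modified in both strains, while G607 and U612 were modified in Erb1-depleted particles alone. G607 had 0 in deltaRDB5 particles and 0.363 in Erb1-depleted particles. U612 had 0 in deltaRDB5 and 0.509 in Erb1-depleted particles, inside a run of 9 adjacent calls from A604 to U612. U618 had the lowest standardized difference of the domain, -2.24, with 0 in deltaRDB5 particles and 0.396 in Erb1-depleted particles. All 20 nucleotides of A601 to A620 had negative standardized differences, with a mean of -1.80, and between 13 and 17 of the 17 calls were kept on the scales tried. Without A601 to A620, 12 calls were higher in deltaRDB5 particles and 31 in Erb1-depleted particles.

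The 530 loop lies just before this stretch. G562 to A580 (RDN37-1:1262-1280) held 0 calls in 19 nt, where 5.96% of the transcript was called, so the absence of a call says little at this length. They are shown so that the modified nucleotides can be placed, which were 2 of 19 in deltaRDB5 particles and 4 of 19 in Erb1-depleted particles, near the shares of 18.5% in deltaRDB5 and 21.1% in Erb1-depleted particles over the transcript.
18S G562 to A580, deltaRDB5: gUgccagcagccgcgguaA
18S G562 to A580, Erb1-depleted: gUgccagcagCcgcgguAA
Their mean normalized reactivity was 0.181 in deltaRDB5 particles and 0.195 in Erb1-depleted particles, and G574 to U578 were 0 in both strains. U563 was modified in both, with 0.697 in deltaRDB5 particles and 0.518 in Erb1-depleted particles, as was A580, with 0.563 in deltaRDB5 and 0.496 in Erb1-depleted particles. A579 was modified in Erb1-depleted particles alone, with 0.348 in deltaRDB5 particles and 0.561 in Erb1-depleted particles, and so was C572, with 0.535 in deltaRDB5 and 0.440 in Erb1-depleted particles. Of the 19 nucleotides 18 had a negative standardized difference, with a mean of -0.46, which turned to 0.21 with a running median taken out.

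Of the nucleotides that are 2'-O-methylated in mature 18S, 9 lie in the domain, and a methylated 2'-hydroxyl cannot be acylated by 1M7. None of the 9 was modified in either strain, where 26.6% of the domain was in deltaRDB5 particles and 30.6% in Erb1-depleted particles. Their mean normalized reactivity was 0.0199 in deltaRDB5 particles and 0.0578 in Erb1-depleted particles. The nucleotides 5 nt to the 5' side of these sites had similarly low means, 0.0186 in deltaRDB5 and 0.0709 in Erb1-depleted particles. Of those, 0 were modified in either strain, so a low mean was also found away from the methylated nucleotides. Within 5 nt on either side, this distance had the lowest mean in both strains. Its bases were not matched to those of the sites, and an effect of methylation was not tested. In deltaRDB5 particles A28 had 0.0320 and A420 had 0.147, and A100, C414, A436, A541, G562, U578 and A619 were 0. In Erb1-depleted particles A420 had 0.157. A436 had 0.165 and A619 had 0.198, and the other 6 were 0. Of these 9 nucleotides 6 are adenosines, and the 178 other adenosines of the domain had means of 0.586 in deltaRDB5 particles and 0.573 in Erb1-depleted particles.

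The nucleotide on the 3' side of a methylated one had values from 0 upward. Over the 9 sites it averaged 0.623 in deltaRDB5 particles and 0.595 in Erb1-depleted particles, and it was modified at 4 sites in deltaRDB5 particles and 5 in Erb1-depleted particles. Most of these neighbours are A or U, the bases with the highest modified shares in the domain, so these counts are not read as a trait of the sites. A620 beside A619 had 1.38 in deltaRDB5 particles and 1.48 in Erb1-depleted particles. U29 beside A28 had 1.14 in deltaRDB5 and 0.754 in Erb1-depleted particles. A421 beside A420 had 1.11 in deltaRDB5 and 0.780 in Erb1-depleted particles. C415 beside C414 was 0 in both. The nucleotide on the 5' side averaged 0.0320 in deltaRDB5 particles and 0.163 in Erb1-depleted particles. Of the 5 uridines of the domain that are pseudouridines in mature 18S, 0 were modified in either strain, while 21.8% of all its uridines were in deltaRDB5 particles and 27.4% in Erb1-depleted particles, so that a count of 0 among 5 is not far from these shares. U120, U211 and U302 were 0 in both strains. U106 had 0.0611 in deltaRDB5 particles and 0.0405 in Erb1-depleted particles. U466 had 0 in deltaRDB5 and 0.0788 in Erb1-depleted particles. How much of the 35S pre-rRNA in these particles carried the modifications was not measured.

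**Figure D5:**
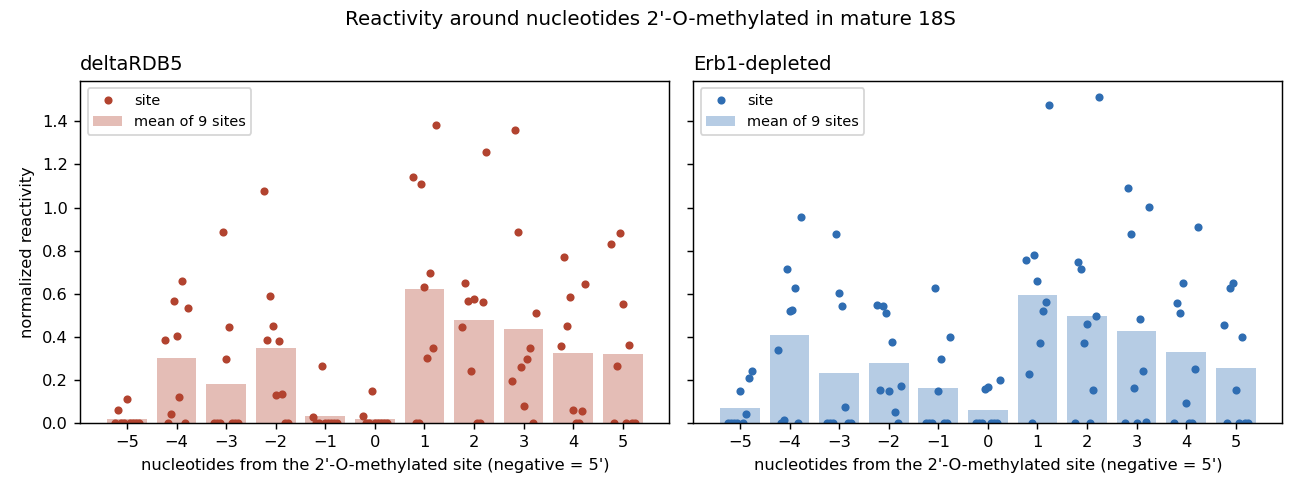
Normalized reactivity (no unit) by distance from the 9 nucleotides of the domain that are 2'-O-methylated in mature 18S, with deltaRDB5 particles left of Erb1-depleted particles, points for single sites and bars for their mean. The mean is 0.0199 in deltaRDB5 particles and 0.0578 in Erb1-depleted particles at the site, and 0.623 in deltaRDB5 particles and 0.595 in Erb1-depleted particles at the next nucleotide on the 3' side. At 5 nt to the 5' side it is 0.0186 in deltaRDB5 particles and 0.0709 in Erb1-depleted particles.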

How the data were processed

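The libraries were made with random-hexamer priming by SuperScript III and 5' adapter ligation by CircLigase II, per the labels' protocols, and the submitters' processing notes name Novoalign for the alignment (version not given in the sources used here). Per the file headers, the authors deposited scores for each nucleotide, in 1 column for each strain. The headers call the first strain D5, which the sheet does not define, and every deltaRDB5 value rests on reading D5 as the strain labelled mrd1-deltaRDB5. They comprise a raw and a normalized SHAPE reactivity, a BUM_HMM posterior of modification and a deltaSHAPE comparison. Neither the computation of the raw scores nor the control libraries behind those of Erb1-depleted particles are given in the sources used here. Normalized scores equal raw scores multiplied by 5.21 in deltaRDB5 particles and by 4.35 in Erb1-depleted particles, with negatives at 0. The sheet holds no read numbers, so depth is unknown.

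The calling rule (3 nt smoothing, 1 SD, 3 of 5 nt, Z-factor above 0) was run on the whole transcript with Python 3.11.15 and numpy 2.4.6. It gave 1646 calls, of which 0 differed from the authors' deposited table. Its smoothing, threshold and window steps were tested on simulated shifts, which tested neither the Z-factor nor the filter on modified nucleotides. RNAfold 2.7.2 predicted the fold. The domain, the lists and the nucleotides named were chosen with earlier results of these data known. Named were all called nucleotides or their groups, the 10 most reactive per strain, the nucleotides of the U14 site, the known modified nucleotides, the 5 highest and lowest windows and the 5 longest unmodified stretches. Hairpins, adenosine runs and some uncalled neighbours were picked after their values were seen.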

Additional observations from a re-analysis of the deposited data

How the results depend on the processing

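No paired analysis was possible because each strain has 1 combined value per nucleotide, and for the same reason no library could be left out. The counts of modified nucleotides stayed within 1.5 times of those reported at posteriors of 0.9 and 0.99 and with bounds of U21 to U600. At a threshold of 2 SD, 4 nucleotides were called, 4 higher in deltaRDB5 particles and 0 in Erb1-depleted particles, because fewer pass a stricter threshold. The 12 calls higher in deltaRDB5 particles became 34 on normalized scores with negatives at 0, and 3 without U1 to G30. The 44 calls higher in Erb1-depleted particles became 33 with each strain scaled by its factor, 32 at equal SD and 32 after quantile normalization. No share over the transcript is given for these settings. Named calls kept their sign under every setting, but not all of them stayed called. The mean standardized difference of the 5' end, 1.06, was 1.97 on normalized scores with negatives at 0 and 0.46 with a running median taken out. That of the U14 site, 0.39, was 0.67 with each strain scaled by its normalization factor, 0.69 at equal SD, 0.86 on normalized scores, 0.71 after quantile normalization and 0.23 when widened. That of the U14 C/D guide site, -0.37, was -0.13 on normalized scores, -0.14 with the running median out and -0.19 when widened. That of the 530 loop, -0.46, was -0.041 on normalized scores and 0.21 with the running median out. Around 2'-O-methylated nucleotides, -0.47 became -0.12 on normalized scores and -0.25 with the running median out. For the pseudouridines, 0.19 became -0.086 when each strain was scaled by its factor, -0.11 after quantile normalization, -0.11 at equal SD and 0.40 with the running median out. The cause of these moves was not tested. Of 31 windows, 5 or 6 turned sign on each scale, none of them among the 12 with calls. The fold of all of 18S, and the settings without U1 to G30 and without A601 to A620, were added after the data were seen.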
